A study of Rattus norvegicus with 6 samples.

Results

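Adgrf1, Adgrf5, Adgrg1, Adgre1, Adgrl4 and Adgrl2 encode 6 adhesion G protein-coupled receptors (adhesion GPCRs), and their transcript levels were examined in kidneys of Dahl salt-sensitive (S) rats and of congenic rats. All probe sets whose platform gene symbol was one of these 6 names or its older name (Gpr110, Gpr116, Gpr56, Emr1, Eltd1 and Lphn2) were taken. They came to 10 probe sets for 6 genes, of 31099 probe sets and 14217 named genes on the array. Adgrf1 and Adgrf5 each lie on chromosome 9 in the RefSeq gene table of GRCr8, as does Adgre1, whereas Adgrg1 lies on chromosome 19 and Adgrl2 and Adgrl4 on chromosome 2. Adgrf1 had been noticed because, of the 541 tested probe sets of chromosome 9, 1 of its own had the smallest p in the strain comparison (rank 5 of all 18625 tested). The strain difference of these 6 genes is therefore given as a description, without a test.

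The S group was the Dahl salt sensitive rat, a strain that becomes hypertensive on a salt-rich diet. The other group was a congenic strain with the Dahl S background that carries, per its genotype label, chromosome 9 material of the R strain and, by the study's title, a short congenic segment in which a blood pressure locus was placed. All rats were male, were 53 days old at death, were weaned at 30 days and ate a 2% salt diet, so no low-salt kidney was part of the comparison. RNA of 2 rats was pooled for each array and 3 arrays were made per strain, from 6 rats of each, so a value of a single animal cannot be read. Where the congenic segment begins and ends was not analysed here.

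Adhesion GPCRs have a long extracellular part that can bind matrix proteins or proteins of neighbouring cells, a juxtamembrane domain in which many of them cleave themselves, and 7 membrane-spanning helices. The stretch just behind the cleavage site can act as a tethered agonist and couples the receptor to G proteins. In the kidney Adgrf5, also called Ig-Hepta, is known in the endothelium and in acid-secreting intercalated cells of the collecting duct. Adgre1 is the F4/80 antigen of macrophages, Adgrl4 (ELTD1) is an endothelial receptor of growing vessels, and Adgrl2 (latrophilin 2) binds teneurins and FLRT proteins. Adgrg1 (GPR56) binds collagen III, and Adgrf1 (GPR110) is a receptor for the lipid synaptamide in neurons.

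All 6 members were matched by symbol to the RefSeq windows of GRCr8 that run from 250 bases before to 50 bases after a gene's start. The windows of Adgrf1 are shown because its bright probe set is the one whose arrays separated by strain, and that of Adgrf5 because it is the next gene on the chromosome. Adgrf1 has 3 annotated windows, of which the third overlaps the second almost wholly and is not shown. Each sequence is on the minus strand of GRCr8, 5′ to 3′ in the direction of the gene, and capitals mark the motifs that were searched.
Adgrf1, chr9:25210695-25210994: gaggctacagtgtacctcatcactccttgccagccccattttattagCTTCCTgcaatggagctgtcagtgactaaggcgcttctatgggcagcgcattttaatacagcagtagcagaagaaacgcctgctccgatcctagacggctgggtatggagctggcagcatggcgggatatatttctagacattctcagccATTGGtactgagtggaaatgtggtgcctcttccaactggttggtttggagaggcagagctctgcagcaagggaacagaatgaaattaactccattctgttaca
Adgrf1, chr9:25191181-25191480: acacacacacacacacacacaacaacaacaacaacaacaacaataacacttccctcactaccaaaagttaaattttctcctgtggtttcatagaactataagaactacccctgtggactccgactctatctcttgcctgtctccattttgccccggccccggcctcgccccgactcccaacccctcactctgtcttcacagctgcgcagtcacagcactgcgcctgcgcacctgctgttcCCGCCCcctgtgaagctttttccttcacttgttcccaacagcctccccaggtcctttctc
Adgrf5, chr9:25121188-25121487: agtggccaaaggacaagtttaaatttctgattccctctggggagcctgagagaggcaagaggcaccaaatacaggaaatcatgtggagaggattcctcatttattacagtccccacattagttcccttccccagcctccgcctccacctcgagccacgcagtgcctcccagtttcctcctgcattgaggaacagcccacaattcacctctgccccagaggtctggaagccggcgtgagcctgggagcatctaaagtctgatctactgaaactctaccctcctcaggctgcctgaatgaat

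The motifs searched on both strands were TATAAA for the TATA box, CCAAT for the box of that name, GGGCGG for Sp1 sites, TGANTCA for AP-1 and AGGAAG for ETS factors, and no matches overlapped in the windows shown. The first Adgrf1 window held 1 CCAAT match, a motif present in 37.5% of all 33469 windows, and 1 AGGAAG match, present in 34.5%. The second held 1 GGGCGG match, present in 33.1% of windows. The Adgrf5 window held none of the 5, TATAAA being present in 14.2% and TGANTCA in 7.33% of windows, and a missing match says only that these letters are not in the window. Of the other members, the Adgre1 window held 2 overlapping AGGAAG matches, the Adgrl2 window 1 TATAAA match, and those of Adgrl4 and Adgrg1 none. The GC content of the first Adgrf1 window was 49.3%, against 53.0% for Adgrf5 and a median of 51.7% over all windows.

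Adgrf1 was represented by a bright and a dim probe set. On the bright one, 1396942_at, the S arrays gave MAS5 signals of 483, 523 and 487 and those of the congenic strain 359, 346 and 372. MAS5 signal is a linear brightness that combines the probes of a probe set, and it can be compared between arrays for 1 probe set but not between probe sets. All 3 congenic arrays were below all 3 S arrays, and the lowest S array was 1.297 times the highest congenic array. The mean was 497 ± 21.8 in S and 359 ± 12.9 in congenic pools (SD, n = 3 each), 1.38 times as high in S. This corresponds to a log2 fold change of -0.45 (SE 0.066), congenic minus S on the log2(signal + 16) scale used throughout. The arrays of a strain differed little on this probe set, with a coefficient of variation of 4.39% in S and 3.59% in congenic pools. The difference stayed between -0.50 and -0.41 in every alternative run, each left-out array included. Changes of filter or variance setting and a replicate block cannot move this value. Adgrf1 was chosen on these same arrays, so neither this range nor the small spread is independent support.

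The dim Adgrf1 probe set, 1389768_at, gave 21.0, 24.5 and 29.0 in S and 19.3, 15.0 and 22.6 in congenic pools. The strains overlapped, since S array 1 was below congenic array 3. The means were 24.8 ± 4.01 and 18.9 ± 3.80 (SD, n = 3 each), and the log2 fold change was -0.23 (SE 0.15). This mean lay below the 40th percentile of the array, a signal of 25.6, so the probe set did not pass the filter on low values. The number added before taking logs pulls the fold change of dim probe sets towards 0. With 1 in place of 16 added, the dim set was at -0.38 and the bright set at -0.47. Across the 6 arrays, Pearson's r between the 2 Adgrf1 probe sets was 0.73, a description that contains the strain difference.

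**Figure D1:**
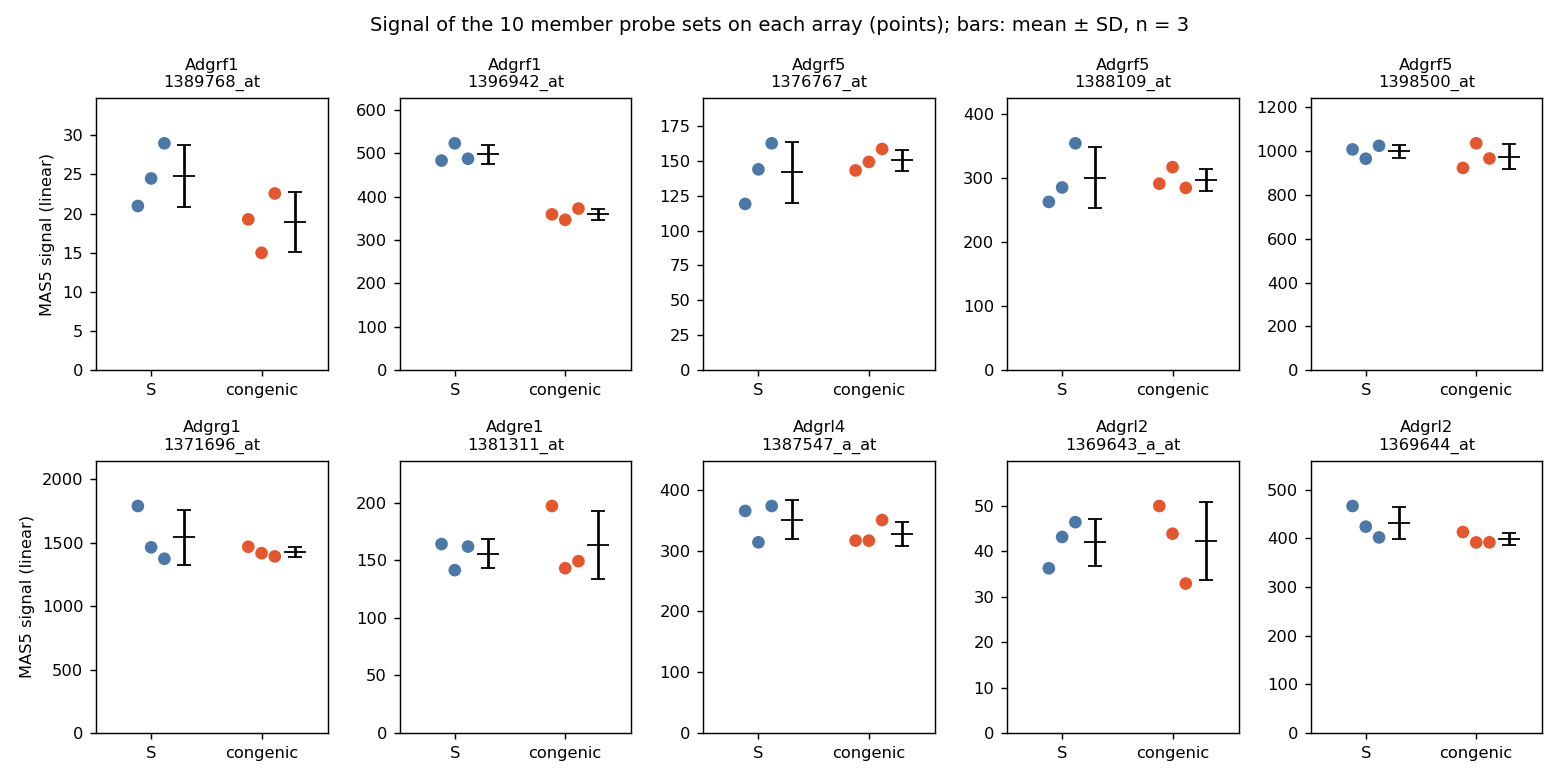
MAS5 signal (linear, each axis from 0) of the 10 probe sets on the 3 S and 3 congenic arrays, with points for single arrays and bars for the mean ± SD (n = 3). The bright Adgrf1 probe set has S arrays at 483 to 523 and congenic arrays at 346 to 372, and the groups overlap on the other 9 probe sets.

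The bright Adgrf1 probe set was the only 1 of the 10 whose groups did not overlap. Among all 18625 tested probe sets, 6.79% had every congenic array below every S array and 5.74% had every congenic array above, and because Adgrf1 was chosen on this comparison nothing is read from the count. At an adjusted p under 0.05 limma called 0 probe sets (0%) on the whole array, and 1232 (6.61%) had an unadjusted p under 0.05. The exact permutation test of 3 arrays against 3 cannot give a p under 0.1 and was not used. Of the 10 probe sets 7 had a negative log2 fold change, where 51.2% of all tested probe sets did.

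Adgrf5, which lies next to Adgrf1, was measured by 3 probe sets, all overlapping between the strains. The brightest, 1398500_at, gave 1007, 965 and 1024 in S and 923, 1035 and 966 in congenic pools. Congenic array 2 was the highest of the 6 and congenic array 1 the lowest. Its log2 fold change was -0.036 (SE 0.061). Probe set 1388109_at gave 262, 285 and 354 in S and 291, 316 and 284 in congenic pools, with a log2 fold change of -0.0052 (SE 0.10). Probe set 1376767_at gave 119, 144 and 163 in S and 143, 149 and 158 in congenic pools, with a log2 fold change of 0.083 (SE 0.11). On both of these dimmer sets S array 1 was the lowest and S array 3 the highest of all arrays. None of the 3 Adgrf5 differences exceeded its standard error, and all 3 changed sign under some left-out array. Without S array 1, 1376767_at was at -0.024. Probe set 1388109_at was at 0.11 without S array 3, 0.0090 without congenic array 1 and 0.025 without congenic array 3, and 1398500_at was at 0.0021 without congenic array 1. Pearson's r over the 6 arrays was 0.75 between the 2 dimmer sets, and 0.45 and 0.032 between each of them and the brightest, so the probe sets of this gene did not vary as 1.

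Markers of the cells in which Adgrf5 is known were set beside it. In bulk kidney RNA, fewer cells of a type and less RNA per cell cannot be told apart. The summed signal of the 6 measured intercalated cell markers of 7, which include the proton pump subunit Atp6v1g3 and the anion exchanger Slc4a1, was 2451 on S array 1, 3043 and 2987 on the other S arrays and 2751 to 3107 on the congenic arrays. S array 1, the lowest for these markers, was also the lowest for the 2 dimmer Adgrf5 probe sets. The other arrays were mixed. Congenic array 1 had the highest intercalated sum, at 106.9% of the mean, with 1376767_at at 98.0% and 1388109_at at 97.3%. S array 2 was at 104.7%, 98.5% and 95.4% in the same order. S array 3 was at 102.8%, 111.3% and 118.4%, and congenic array 2 at 106.7%, 102.2% and 106.0%. On congenic array 3 the sum was at 94.6%, 1376767_at at 108.5% and 1388109_at at 95.1%. The summed signal of the 10 measured endothelial markers of 11, among them Pecam1, Kdr and Emcn, was 2991 to 3454 on the S arrays and 2869 to 3358 on the congenic arrays. Congenic array 1 had the lowest endothelial sum and the lowest signal of 1398500_at. On congenic array 3 the endothelial sum was at 104.1% of the mean and 1398500_at at 97.9%. On every other array the 2 lay on the same side of their means. S array 3, the highest on both dimmer Adgrf5 probe sets, also had the highest endothelial sum. The part of either cell type in these values was not tested.

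Adgrl4 gave 365, 314 and 374 in S and 317, 316 and 350 in congenic pools on its 1 probe set, 1387547_a_at. S array 2 was the lowest of all 6 arrays and the groups overlapped. The means were 351 ± 32.4 and 328 ± 19.5 (SD, n = 3 each), and the log2 fold change of -0.091 (SE 0.084) ranged from -0.17 to -0.042 over the alternatives. S array 2 and congenic array 1, which had the lowest endothelial marker sums of their groups, were at 92.5% and 93.3% of the Adgrl4 mean. Congenic array 2 was also at 93.3%, with its endothelial sum at 104.6% of the mean. Of the 10 tested endothelial markers 4 were higher and 6 lower in the congenic group, at a median log2 fold change of -0.046. Limma called 0 at an adjusted p under 0.05 and 1 at an unadjusted p under 0.05, where 6.61% of all tested probe sets were.

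Adgre1 gave 164, 142 and 162 in S and 197, 143 and 149 in congenic pools on probe set 1381311_at. Congenic array 1 stood above the other 5 arrays, which lay between 142 and 164. The means were 156 ± 12.5 and 163 ± 29.6 (SD, n = 3 each), and the log2 fold change of 0.051 (SE 0.12) became -0.081 without congenic array 1 and -0.011 without S array 2. Congenic array 1 is also the array with liver transcripts: the summed signal of 5 liver markers was 8984 there and 73.4 to 133 on the other arrays. The liver has macrophages of its own, and their part in the Adgre1 value was not tested. The summed signal of 10 macrophage markers, among them Cd68, Csf1r and C1qa, was 1408 to 1520 in S and 1517 to 1595 in congenic pools, with congenic array 1 highest. Congenic array 2 had a sum of 1580, close to that of array 1, with Adgre1 at 143. Of the markers named, C1qa (391) was highest on congenic array 1, whereas Cd68 (125) and Csf1r (221) were not. Of the 9 that were tested, 6 were higher and 3 lower in the congenic group, at a median log2 fold change of 0.080. Limma called 0 of them at an adjusted p under 0.05 and 1 at an unadjusted p under 0.05, beside 6.61% of all tested probe sets.

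**Figure D2:**
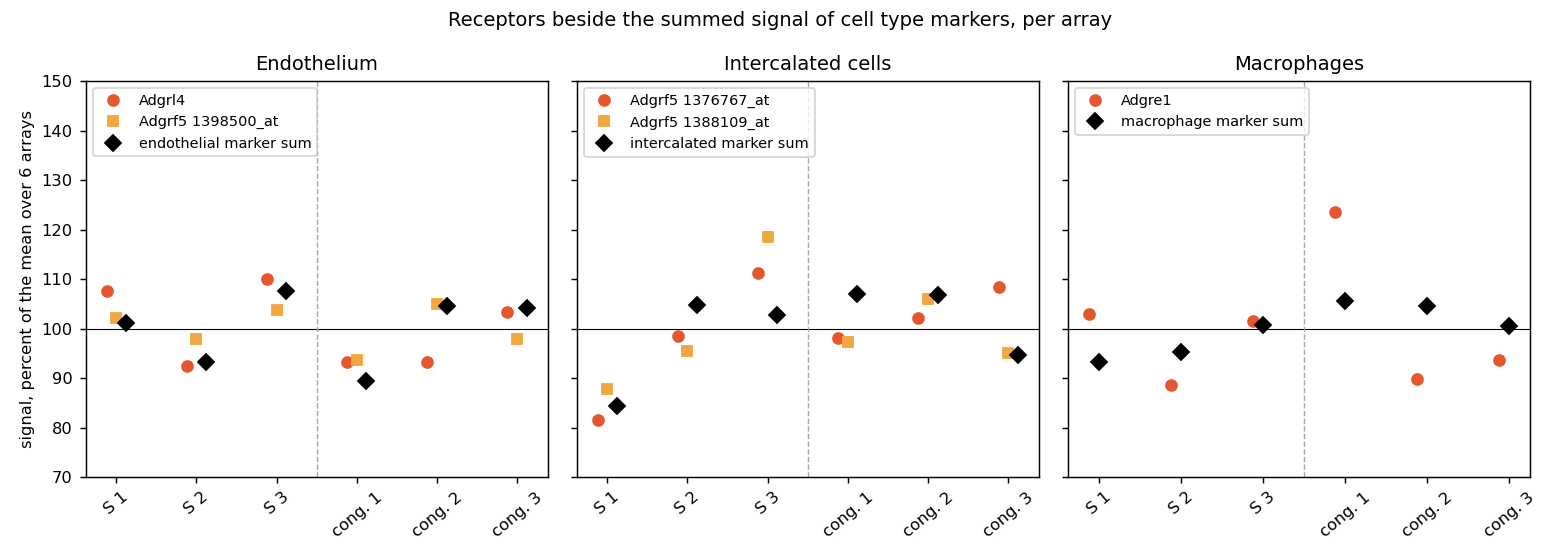
Signal of Adgrl4, Adgrf5 and Adgre1 probe sets and the summed signal of cell type markers on each array, as a percentage of the mean over the 6 arrays (the axis runs from 70 to 150). On S array 1 the intercalated marker sum is at 84.3% and the dimmer Adgrf5 probe sets at 81.6% and 87.8%. On congenic array 1 that sum is at 106.9%, these probe sets at 98.0% and 97.3%, and Adgre1 at 123.6%.

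Adgrg1 gave 1790, 1464 and 1374 in S and 1469, 1418 and 1393 in congenic pools on probe set 1371696_at. S array 1 was the highest and S array 3 the lowest of the 6, so the S arrays enclosed all congenic arrays. The means were 1543 ± 219 and 1427 ± 38.8 (SD, n = 3 each), and the log2 fold change of -0.10 (SE 0.087) was 0.0078 without S array 1. That array had the highest ratio of 3′ to 5′ actin signal, which increases with RNA degradation, at 9.42 against 6.15 to 8.13 on the others, and the highest sum of 5 proximal tubule markers, at 16957 against 15719 to 15934. Of these 5 markers, Lrp2, Slc34a1 and Cubn were highest on S array 1. Aqp1 (3221) was lowest there, and Slc5a2 (122) lay among the other arrays. The part of the actin ratio or of these markers in the Adgrg1 value was not tested.

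Adgrl2 was measured by a bright and a dim probe set. The bright one, 1369644_at, gave 466, 424 and 402 in S and 413, 391 and 392 in congenic pools, with S array 1 highest and congenic array 1 above S array 3. The means were 431 ± 32.8 and 399 ± 12.3 (SD, n = 3 each), and its log2 fold change was -0.11 (SE 0.073), or -0.048 without S array 1. The dim one, 1369643_a_at, gave 36.3, 43.2 and 46.4 in S and 50.0, 43.9 and 32.9 in congenic pools, with a log2 fold change of 0.00056 (SE 0.15). On it the congenic arrays were both highest and lowest of the 6, and the fold change was -0.072 without S array 1, -0.095 without congenic array 1 and -0.025 without congenic array 2. Pearson's r between the 2 Adgrl2 probe sets was -0.19 over the 6 arrays.

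The other adhesion GPCRs were taken from a family list of 25 names, of which 17 were measured and 7 passed the filter on low values. Limma called 0 of the 7 at an adjusted p under 0.05. It gave an unadjusted p under 0.05 for 1, Adgrv1, and for 6.61% of all tested probe sets. Of the 7, 4 were higher and 3 lower in the congenic group, at a median log2 fold change of 0.075, against -0.0034 over all tested probe sets. Adgrv1, the very large receptor of hair cell stereocilia whose loss causes Usher syndrome, gave 357, 355 and 429 in S and 476, 509 and 512 in congenic pools. All congenic arrays were above all S arrays, as for 5.74% of all tested probe sets. The log2 fold change was 0.38 (SE 0.083), in the direction opposite to Adgrf1, and did not pass limma's test (adjusted p = 0.62). Over the alternatives it lay between 0.34 and 0.47, with adjusted p from 0.187 to 0.997.

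Adgrg6, a receptor needed for myelination by Schwann cells, had a log2 fold change of 0.22 (SE 0.12) on its brighter probe set and 0.092 (SE 0.16) on the other. Adgra3 was at -0.13 (SE 0.084) and Adgre5 (CD97), a leukocyte receptor that binds Cd55, at 0.075 (SE 0.095). None of these 3 passed limma's test (adjusted p = 0.785, 0.796 and 0.891). Adgrf4, a further gene of the chromosome 9 group, stayed between 1.40 and 11.5 on both of its probe sets and was below the filter. Adgrd1, also below the filter and chosen after its values were seen, gave 13.5, 7.48 and 5.25 in S and 20.3, 36.8 and 21.0 in congenic pools.

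**Figure D3:**
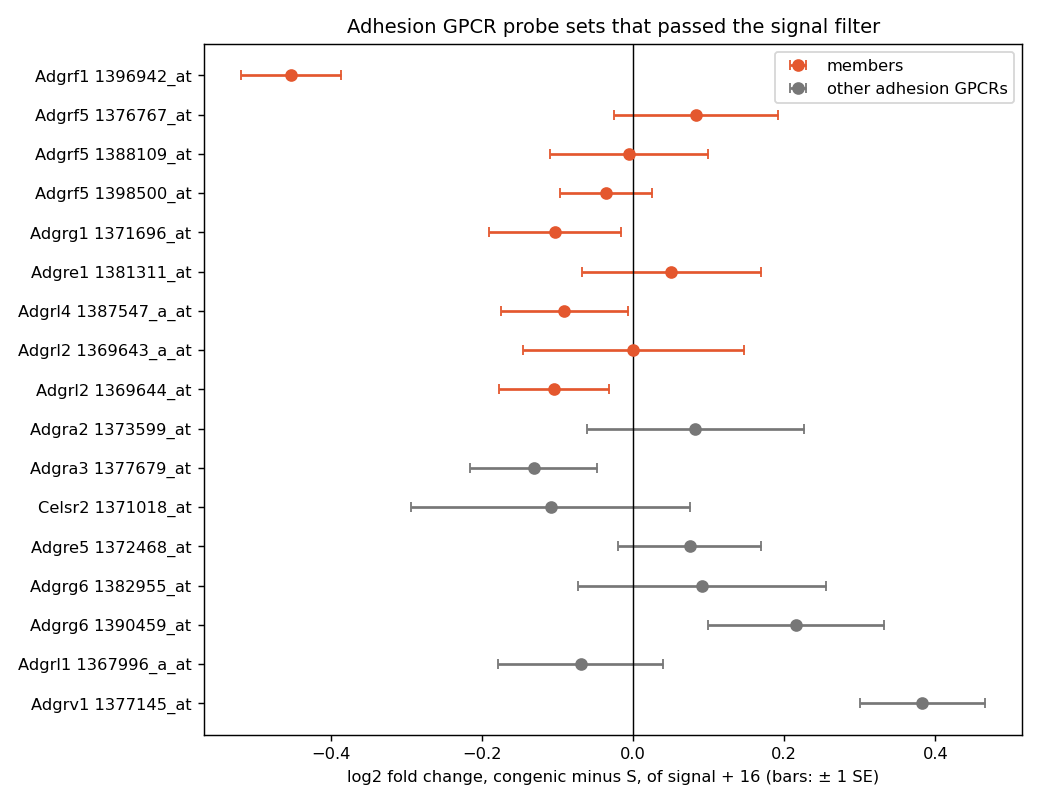
Log2 fold change (congenic minus S, of signal + 16; bars ± 1 SE) of each adhesion GPCR probe set that passed the filter, members in orange and other family genes in grey. Adgrf1 at -0.45 and Adgrv1 at 0.38 lie at the ends, and the rest lie between -0.13 and 0.22.

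The genes around Adgrf1 were taken by position alone, 10 protein-coding genes on each side in the GRCr8 order. Of these 20 genes 13 were measured and 10 tested, among them Adgrf5, and limma called 0 at an adjusted p under 0.05 and 0 at an unadjusted p under 0.05. Of the 10, 5 were higher and 5 lower in congenic pools, within -0.13 to 0.13 on the log2 scale and with a median of -0.014. Tnfrsf21, the death receptor DR6 and the next gene beyond Adgrf1, gave 841, 796 and 802 in S and 666, 757 and 807 in congenic pools. Congenic array 3 was among the S values, and the log2 fold change of -0.13 (SE 0.075) did not pass limma's test (adjusted p = 0.785). Its second probe set was at -0.10. Mep1a, the metalloprotease meprin A of the proximal tubule brush border, was at 0.050 (SE 0.056), and Rcan2, a calcineurin inhibitor, at -0.072 (SE 0.061). These 2 did not pass limma's test either (adjusted p = 0.877 and 0.835). Whether the Adgrf1 difference exceeded those of its neighbours was not tested, since Adgrf1 was chosen for its size.

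**Figure D4:**
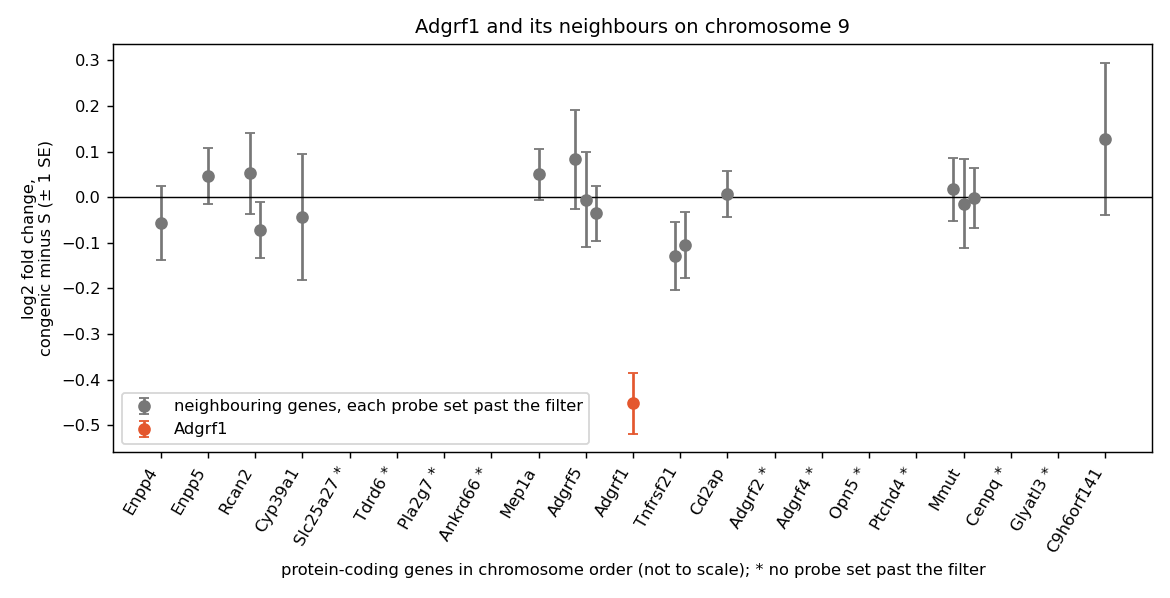
Log2 fold change (congenic minus S; bars ± 1 SE) of every probe set past the filter for Adgrf1 and the 10 protein-coding genes on each side, in chromosome order and not to scale. Adgrf1 is at -0.45, and the representative probe sets of the tested neighbours lie between -0.13 and 0.13.

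Ligands and partners of adhesion GPCRs were a list of 27 genes, of which 23 were measured and 14 tested. Of the 14, 7 were higher and 7 lower in the congenic group, at a median log2 fold change of 0.0031. Limma called 0 at an adjusted p under 0.05 and 1 at an unadjusted p under 0.05, against 6.61% of all tested probe sets. The 1 gene was Flrt1, a ligand of latrophilins, which gave 185, 188 and 170 in S and 140, 155 and 164 in congenic pools. All congenic arrays were below all S arrays, as for 6.79% of all tested probe sets. The Flrt1 log2 fold change of -0.22 (SE 0.087) did not pass limma's test (adjusted p = 0.750). Flrt3, a ligand of the same family, was at -0.18 (SE 0.12), and Cd55, bound by Adgre5, at 0.20 (SE 0.11), neither past limma's test (adjusted p = 0.797 and 0.785). Col3a1, the collagen III bound by Adgrg1 and itself on chromosome 9, gave 2113, 2084 and 2407 in S and 2122, 2104 and 2370 in congenic pools, a log2 fold change of -0.00073. Sftpd, the surfactant protein D that binds Adgrf5, stayed at 1.72 to 17.4 on all arrays and below the filter.

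Of the 18 genes listed for signalling downstream of these receptors, 16 were measured and 15 tested. Of the 15, 10 were higher and 5 lower in the congenic group, at a median log2 fold change of 0.052, and limma called 0 at an adjusted p under 0.05 and 0 at an unadjusted p under 0.05. Arrb2, the arrestin that uncouples and internalises receptors, gave 63.8, 65.2 and 66.8 in S and 76.8, 79.2 and 74.1 in congenic pools. The groups did not overlap, and 5.74% of all tested probe sets were likewise higher on every congenic array. The Arrb2 log2 fold change of 0.19 (SE 0.096) did not pass limma's test (adjusted p = 0.783). Gnai1 was at 0.15 (SE 0.090) and Gnas, the stimulatory G protein, at -0.067 (SE 0.049), neither past limma's test (adjusted p = 0.788 and 0.812).

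The probe sets whose signal most resembled that of Adgrf1 1396942_at were found by Pearson's r over the 6 arrays among 14044 tested probe sets with 1 gene symbol. They belonged to Vti1a (r = 0.984), Acer2 (r = 0.979), Abhd10 (r = 0.979), Micu2 (r = 0.978) and Tpst2 (r = 0.977). These values describe 6 arrays that include the strain difference. None of the 5 genes lies on chromosome 9, which holds only 541 of the 18625 tested probe sets, so nothing is read from that. After each strain's mean was removed, r was 0.906 for Vti1a, 0.901 for Abhd10, 0.771 for Acer2, 0.651 for Tpst2 and -0.0091 for Micu2. The 5 genes were picked by r over the same 6 arrays, which contains these deviations, so these values are no independent support. Acer2, an alkaline ceramidase, gave 769, 853 and 820 in S and 658, 664 and 681 in congenic pools. Vti1a, a SNARE protein of vesicle fusion, gave 34.9, 36.7 and 33.8 in S and 27.0, 25.2 and 28.9 in congenic pools. Its mean was at percentile 43.6 of the array, close to the filter on low values.

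The arrays carried the markers of kidney tubules, with mean S signals of 6699 for Umod, 3768 for Slc12a1 and 2722 for Aqp2. The sum of 5 urothelial markers was 401 to 470 on the congenic arrays and 494 to 542 on the S arrays. That of 3 principal cell markers was higher on every congenic array (4460 to 5238 against 3735 to 4214). Krt19 weighs most in the urothelial sum and gave 260, 264 and 253 in S and 245, 240 and 207 in congenic pools. Upk1b was also lower on every congenic array, whereas Upk1a, Upk3a and the dim Upk2 overlapped, the last with a higher congenic mean. Aqp2 and Aqp3 were higher on every congenic array, and Scnn1g overlapped. Of all tested probe sets, 6.79% were lower and 5.74% higher on every congenic array. Both sums separated by strain as Adgrf1 did, and their part in the Adgrf1 difference was not tested. Of the congenic arrays, array 2 had the lowest Adgrf1 signal and the highest sum of both lists, but nothing is read from an order of 3 arrays. Podocyte marker sums overlapped (992 to 1125 in S, 974 to 1142 in congenic pools), as did those of the loop and distal tubule markers Umod, Slc12a1 and Slc12a3 (10473 to 11049 and 11032 to 11735), fat (1297 to 1659 and 989 to 1517) and of erythroid cells (7168 to 8071 and 7783 to 8444), and so did the actin ratio (6.54 to 9.42 and 6.15 to 7.17). On every array the 3′ actin signal was at least 6.15 times the 5′ signal. S arrays 1 and 2, at 9.42 and 8.13, lay above every congenic array on this ratio. Its part in the Adgrf1 difference was not tested. The 5 adrenal markers summed to 5506 on congenic array 3 and 128 to 142 on the others. Against congenic array 2 alone, whose liver and adrenal marker sums (92.1 and 141) were within the range of the S arrays, the log2 fold change of the bright Adgrf1 probe set was -0.50 and that of the dim one -0.39.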

How the data were processed

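Kidney RNA was measured on 6 Affymetrix Rat 230 2.0 arrays, 3 S and 3 congenic, grouped by the genotype label. The authors deposited linear intensities, which the submitters' processing notes ascribe to MAS5. Its version and scaling target are not given in the sources used here, and detection calls were not used. The trimmed mean (2% at each end) was 150 on every array, so a shift common to most transcripts cannot be seen. Symbols came from the platform annotation, updated by gene ID to RefSeq GRCr8 (20758 of 20826 probe sets with 1 symbol matched, 436 had several symbols and 9780 none).

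After leaving out 57 control probe sets and 12417 whose mean over all 6 arrays was below the 40th percentile, log2(signal + 16) of 18625 probe sets was modelled in R 4.3.3 by limma 3.58.1 (lmFit, eBayes with trend), with Benjamini-Hochberg adjustment over all of them at 0.05. Of the 10 member probe sets 9 passed the filter, and the values of the other came from the fit without a filter. Precision is limited by the number of arrays. A listed gene was represented by its brightest probe set. The genes named were the 6 members, the 4 other family genes and the 3 genes of each further list with the smallest p, and the 5 most like Adgrf1; further genes are named as background or as examples of a list. The members and lists were chosen with earlier results of these data known. The alternatives were other pseudocounts, filters, normalizations and variance settings, array weights, a replicate block, each array left out and congenic array 2 alone.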

Additional observations from a re-analysis of the deposited data

How the results depend on the processing

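The bright Adgrf1 probe set had a log2 fold change of -0.48 to -0.42 with each array left out in turn. Since it was chosen on these same arrays, this range is no independent support. Over all 16 alternatives 6 to 8 of the 10 member probe sets were negative. The probe sets of Adgrf5, Adgrg1 and Adgre1 and the dim one of Adgrl2 changed sign under at least 1 alternative, and those of Adgrf1, Adgrl4 and the bright one of Adgrl2 under none. With each array left out, limma called 0 to 1 probe sets over the whole array, the 1 being St3gal2 without congenic array 2 (adjusted p = 0.0301). It called 0 under the other alternatives, leaving aside congenic array 2 alone. Limma's unadjusted p was under 0.05 for 1837 of 31042 probe sets without a filter and 903 of 12417 with the 60th percentile filter. The remaining alternatives, again without that of congenic array 2 alone, gave 892 to 1706 of 18625. Of the other family genes, ligands, signalling genes and neighbours it called 0 under all 16. Rcan2 changed sign against congenic array 2 alone (0.027), and the cause was not tested. Deviations of same-numbered S and congenic arrays correlated at 0.037, 0.014 and 0.021, and those of differently numbered arrays at -0.046 to 0.038. Whether same-numbered arrays shared a batch was not tested. With the replicate block limma called 0 probe sets (smallest adjusted p = 0.0934, against 0.164 in the main fit). Each block holds 1 array of each strain, so the Adgrf1 value of -0.45 could not change. Detection calls were not used here, so a probe set under the filter is dim and cannot be called absent.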
